A study of Homo sapiens with 4 samples.

Results

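Non-homologous end joining is the route by which most radiation-induced DNA double-strand breaks are rejoined in human cells without a homologous template. The 9 genes described here code for its core factors and, in TP53BP1 and RIF1, for regulators that act beside the break. They were picked by gene name, all 9 being found among the 58174 rows of the deposited table that carry an Ensembl gene identifier. They are XRCC5 and XRCC6, PRKDC, DCLRE1C, LIG4, XRCC4, NHEJ1, TP53BP1 and RIF1. Their RNA was measured in 2 established lines of human pancreatic cancer, SW1990 and PANC-1. Cells of each line were left unirradiated (0 Gy) or received a 10 Gy dose of X-ray radiation, and every line and dose gave 1 library, 4 in total. The cells were at passage 14 to 16, and the lines were grown in different media, so that line and medium cannot be told apart. The time between radiation and RNA collection was not given in the sources used here.

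The Ku heterodimer (XRCC5 and XRCC6) clamps onto a broken DNA end and recruits the kinase DNA-PKcs (PRKDC), the nuclease Artemis (DCLRE1C) trims ends that cannot be joined directly, and the ligase LIG4 with its partners XRCC4 and XLF (NHEJ1) seals the break. 53BP1 (TP53BP1) and RIF1 sit on the chromatin beside the break and hold back resection, the trimming to single-stranded DNA that commits a break to homologous repair. These proteins are present before any damage and are controlled largely by recruitment and phosphorylation, so their RNA level is only one side of the pathway.

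Each gene has a read count and an FPKM, which relates the fragments of a gene to the length of its transcripts and to sequencing depth. Total gene counts were 17851815 and 18305682 for the SW1990 libraries at 0 and 10 Gy, and 23323266 and 20026595 for those of PANC-1. Counts below are given in that order of dose. Fold changes are those of the counts after scaling of the libraries by TMM, on a log2 scale. The 95% intervals given with them are exact and cover counting error only, since the groups hold no replicates. A bulk library cannot tell less RNA per cell from fewer cells of a type. The keratins KRT8, KRT18 and KRT19 of simple epithelia were abundant in all 4 libraries (FPKM between 146 and 1888). The epithelial adhesion gene CDH1 had 9906 and 14345 counts in SW1990 but 59 and 65 in PANC-1, and EPCAM 7348 and 7552 against 108 and 113. Of 11 markers of lymphocytes, endothelium, fibroblasts, acinar and islet cells, the most abundant in SW1990 was PDGFRB, with 129 and 63 counts there and 0 and 3 in PANC-1. VWF had 14 and 50 counts in SW1990 and 2 and 4 in PANC-1, while CD3E, DCN, CPA1, INS and GCG were at 0 in each library.

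The 9 genes ranged from abundant to scarce in each of the 4 libraries. Per transcript length, XRCC6, XRCC5 and PRKDC lay above the other members in each library, with FPKM values between 81.9 and 229.7. RIF1 and TP53BP1 came next, between 13.7 and 45.3. LIG4, XRCC4, NHEJ1 and DCLRE1C stayed between 4.37 and 10.3. Among all genes that reached an FPKM of 1 in unirradiated SW1990 cells, XRCC6 stood at the 98.8th percentile and LIG4 at the 41.9th. NHEJ1 and DCLRE1C stood at percentiles 50.2 and 52.7 there, so that scarce is meant beside the other members only. Within the abundant and the scarce members the order changed in part between libraries. The ranges over the libraries of XRCC6 (127 to 229.7), XRCC5 (125 to 156) and PRKDC (81.9 to 164) overlapped. So did those of LIG4 (5.74 to 7.25), XRCC4 (6.97 to 7.63) and NHEJ1 (7.18 to 9.43). Even so, LIG4 lay below XRCC4 in each library, and XRCC6 above XRCC5 in all but irradiated PANC-1. Together the 9 genes took 0.290% and 0.281% of the counts in unirradiated and irradiated SW1990 and 0.254% and 0.266% in PANC-1.

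**Figure D1:**
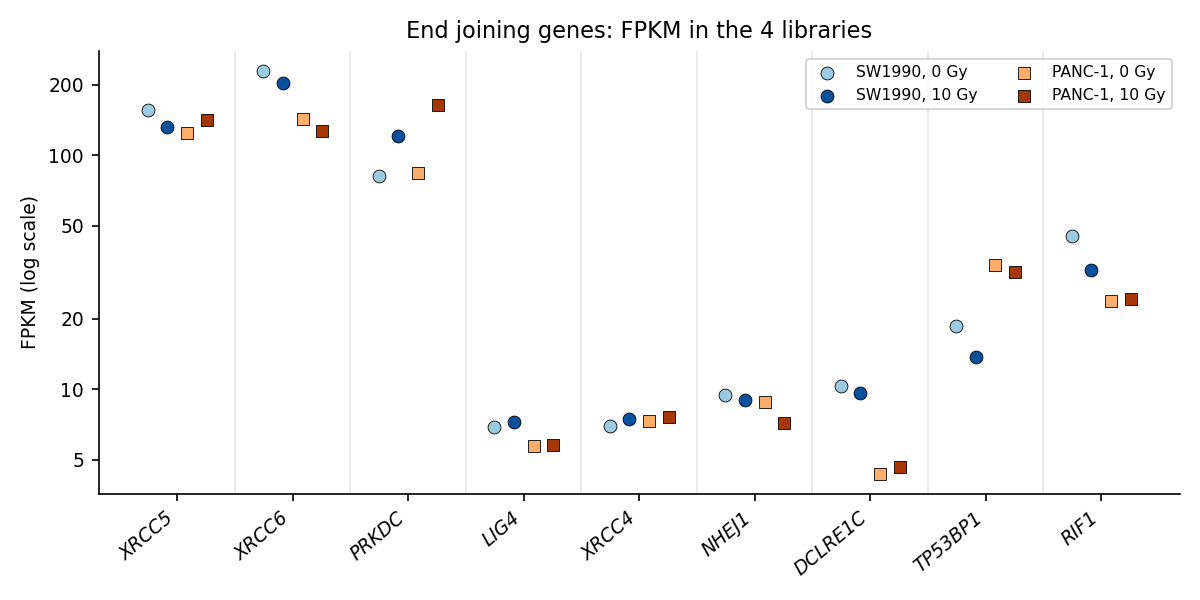
FPKM (log scale) of the 9 end joining genes in the 4 libraries, 1 point per library with no replicates and therefore no error bars. The Ku genes XRCC5 and XRCC6 and PRKDC lie between 81.9 and 229.7, whereas LIG4, XRCC4, NHEJ1 and DCLRE1C lie at 10.3 or below.

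The first question was whether 10 Gy moved the RNA of the end joining machinery. None of the 9 genes passed a 1.5-fold change of its count in either line. In SW1990 cells 10.9% of the 15731 genes tested lay above and 9.62% below that limit, and in PANC-1 cells 11.6% and 10.1% of 15159. The median log2 fold change of the 9 genes was 0.07 in SW1990 and -0.07 in PANC-1, beside 0.02 and -0.01 over all genes tested. Where the counts are large, the interval leaves out 0 for small shifts too. It did so upward for 2 members in SW1990 (XRCC5 and PRKDC; 27.4% of all genes tested) and downward for 4 (XRCC6, DCLRE1C, TP53BP1 and RIF1; 21.2%). In PANC-1 it did so upward for PRKDC alone (26.7% of all genes tested) and downward for 4 (XRCC6, NHEJ1, DCLRE1C and TP53BP1; 29.6%). With library totals in place of TMM, 4 members turned from below to above 0 in PANC-1: XRCC5 (0.07), LIG4 (0.01), XRCC4 (0.04) and TP53BP1 (0.01). In SW1990 XRCC5 then stood at 0.01, and the genes past the 1.5-fold limit went from 1717 above and 1513 below to 1483 and 1704. In PANC-1 they went from 1753 above and 1532 below to 2102 and 1280. The only test over samples, edgeR's quasi-likelihood test on the 4 libraries with cell line as a covariate and 1 residual degree of freedom, called 0 of 18180 genes for radiation after Benjamini-Hochberg adjustment (0% called). In the same fit 833 genes had an unadjusted p under 0.05 (4.58%). DESeq2 called 38 genes and limma-voom 0, none of the 38 being a member. The adjusted p of the members in edgeR's fit lay between 0.936 and 0.992.

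**Figure D2:**
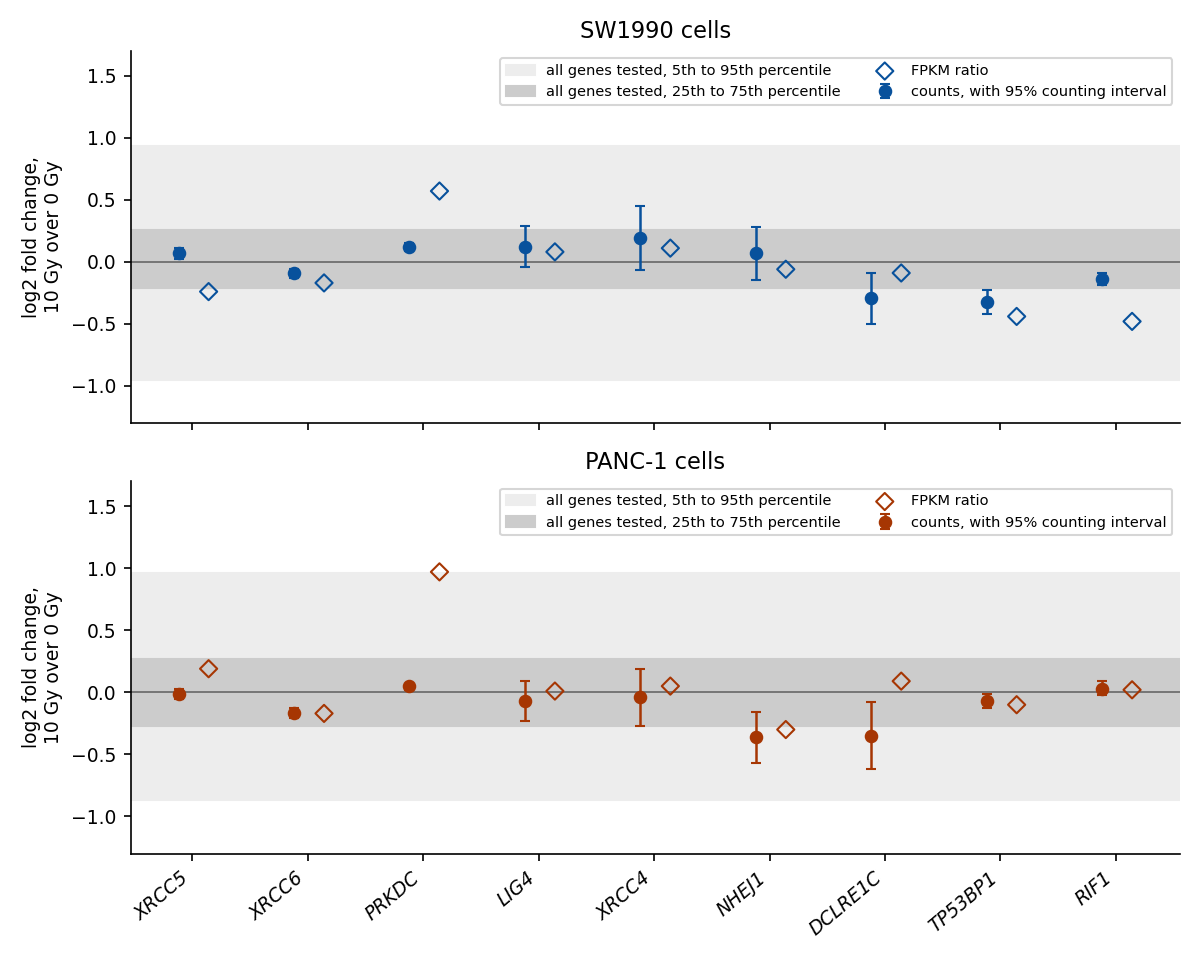
Log2 fold change of irradiated over unirradiated cells for the 9 genes in SW1990 (upper) and PANC-1 (lower). Filled points are TMM-scaled counts with their 95% counting interval, open diamonds are ratios of the FPKM values, and grey bands hold the middle of all genes tested; the counts of all members lie near 0, and the diamond of PRKDC lies at 0.57 and 0.97.

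The counts of the Ku subunits shifted little with radiation. XRCC5 (Ku80, chr2:216107464-216206303) had 8721 and 9020 counts in unirradiated and irradiated SW1990, and 9697 and 8756 in PANC-1. Its log2 fold change with radiation was 0.07 (0.02 to 0.11) in SW1990 and -0.01 (-0.05 to 0.03) in PANC-1. XRCC6 (Ku70, chr22:41621119-41664048) had 11553 and 10703 counts in SW1990 and 9277 and 7491 in PANC-1. It was lower after radiation in both lines, by -0.09 (-0.13 to -0.06) and -0.17 (-0.21 to -0.13), its adjusted p in edgeR's fit being 0.946. The proteins work as a pair, and the FPKM ratio of XRCC6 to XRCC5 was 1.47 and 1.55 in SW1990 and 1.14 and 0.889 in PANC-1. By counts, which keep no length scaling, the same ratio was 1.32 and 1.19 in SW1990 and 0.957 and 0.856 in PANC-1, so that its direction with radiation in SW1990 depended on the unit.

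PRKDC gave different answers in the 2 units that were deposited for it. Its counts were nearly level with radiation, while its FPKM was higher after radiation in both lines. PRKDC (chr8:47773108-47960183) had 20950 and 22475 counts in unirradiated and irradiated SW1990, and 27863 and 26126 in PANC-1, with log2 fold changes of 0.12 (0.09 to 0.15) and 0.05 (0.02 to 0.07). Its FPKM was 81.9 and 121 in SW1990 and 83.9 and 164 in PANC-1, log2 ratios of 0.57 and 0.97. By FPKM it was the third most abundant member in unirradiated PANC-1 and the first in irradiated PANC-1.

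The step between the units is the transcript length. A count divided by FPKM and by library depth returns the length that the FPKM was scaled by, here called the implied length, scaled so that the median gene with a single annotated transcript returns its annotated length. Between the 5th and 95th percentile of such genes, at least 714 in each library, it was 0.995 to 1.01 times that length. The implied length of PRKDC was 11632 bases in unirradiated SW1990 and 8262 after radiation. In PANC-1 it was 11474 and 6357 bases. Both irradiated libraries lay below both unirradiated ones. In SW1990, 1.45% of 11111 genes with at least 100 counts in both libraries had an implied length shorter by over 1.5-fold after radiation, and in PANC-1 1.56% of 11217. PRKDC passed that limit in PANC-1 (log2 ratio -0.85, with 70 genes, 0.624%, at or below it) and not in SW1990 (-0.49, with 234 genes, 2.11%, at or below it). The implied length has no replicate check, and whether it moved with radiation or between single libraries was not tested.

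GENCODE release 29 lists 11 transcripts of PRKDC. Of these, 2 are full-length coding transcripts of 13509 and 12784 bases, and the other 9 are at most 1087 bases long, most of them annotated as retained introns. Under these models, the implied length sets how the FPKM divides between the long and the short transcripts. The short ones held between 9.35% and 15.1% of the gene's FPKM in unirradiated SW1990 and between 36.7% and 42.2% after radiation. In PANC-1 they held between 10.6% and 16.4% and then between 52.2% and 57.6%. In reads these are small shares, since a short transcript yields few fragments. The short transcripts held between 0.373% and 1.41% of the counts in unirradiated SW1990 and between 3.81% and 9.84% in irradiated PANC-1. These shares assume the GENCODE models and no others, and StringTie can also assemble transcripts that the annotation lacks.

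For other members too the unit decided the direction of small changes. DCLRE1C, which codes for the nuclease Artemis (chr10:14897359-14954432), had 458 and 369 counts in unirradiated and irradiated SW1990 and 274 and 195 in PANC-1. The log2 fold changes of the counts were -0.29 (-0.50 to -0.09) and -0.35 (-0.62 to -0.08). By FPKM it stood at 10.3 and 9.67 in SW1990 and at 4.37 and 4.64 in PANC-1, log2 ratios of -0.09 and 0.09, since its implied length was shorter after radiation in both lines (2030 to 1704 bases and 2169 to 1680). XRCC5 in SW1990 was higher by counts (0.07) and lower by FPKM (-0.24). DCLRE1C overlaps SUV39H2 on the other strand over 6957 bases, and reads from the overlap cannot be told apart if strand was not used in counting, which the sources used here do not give.

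The 3 genes of the ligation complex were scarce beside the Ku genes and PRKDC. LIG4, the ligase (chr13:108207439-108218368), had 609 and 656 counts in SW1990 and 676 and 585 in PANC-1. Its log2 fold change with radiation was 0.12 (-0.04 to 0.29) and -0.07 (-0.23 to 0.09). XRCC4, the scaffold that stabilises LIG4 (chr5:83077498-83353787), had 237 and 267 counts in SW1990 and 339 and 300 in PANC-1. Its changes were 0.19 (-0.07 to 0.45) and -0.04 (-0.27 to 0.19). At these depths no change was detectable for either gene. The FPKM ratio of LIG4 to XRCC4 was 0.987 and 0.965 in SW1990 and 0.780 and 0.755 in PANC-1.

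NHEJ1, which codes for XLF, the filament partner of XRCC4 (chr2:219075317-219160865), was the member with the lowest radiation fold change in PANC-1. It had 356 and 369 counts in SW1990 and 472 and 334 in PANC-1. The log2 fold change was 0.07 (-0.15 to 0.28) in SW1990 and -0.36 (-0.57 to -0.16) in PANC-1. An unnamed gene of the annotation, AC068946.1, overlaps NHEJ1 on the same strand along nearly its whole length. AC068946.1 had 0 counts in both SW1990 libraries, but 33 in unirradiated and 91 in irradiated PANC-1. With the 2 genes added together, the counts in PANC-1 were 505 and 425, a log2 fold change of -0.11 (-0.30 to 0.08). With these reads included the interval no longer left out 0.

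The break-side regulators TP53BP1 and RIF1 had lower counts after radiation in SW1990 beyond counting error, with edgeR adjusted p-values over both lines of 0.936 and 0.979. TP53BP1 (chr15:43403061-43510728) had 2030 and 1605 counts in SW1990 and 5192 and 4492 in PANC-1. Its log2 fold change was -0.32 (-0.42 to -0.23) in SW1990 and -0.07 (-0.13 to -0.01) in PANC-1, and its FPKM was 18.6 and 13.7 against 33.9 and 31.7. RIF1 (chr2:151409883-151508013) had 6772 and 6061 counts in SW1990 and 5408 and 5020 in PANC-1. Its changes were -0.14 (-0.19 to -0.09) and 0.03 (-0.02 to 0.09). It overlaps NEB on the other strand, which had 162 and 103 counts in SW1990 and 0 and 61 in PANC-1. In SW1990 the FPKM of RIF1 was lower by more than its count (45.3 and 32.5, log2 ratio -0.48). The SW1990 response minus the PANC-1 response was -0.25 for TP53BP1 (-0.36 to -0.14) and -0.17 for RIF1 (-0.25 to -0.10), and 0.43 for NHEJ1 (0.14 to 0.72). For NHEJ1 with AC068946.1 added, the responses were 0.07 and -0.11, which lie closer together. The difference also left out 0 for XRCC5 (0.07, 0.02 to 0.13), XRCC6 (0.08, 0.02 to 0.14) and PRKDC (0.07, 0.04 to 0.11). A difference of responses could not be tested over samples, since 4 libraries leave no degree of freedom for it.

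The second question was how the lines differ, and here 2 members stood apart. The SW1990 libraries held more DCLRE1C and less TP53BP1 than the PANC-1 libraries at both doses. In edgeR's quasi-likelihood fit, which called 43.6% of the 18180 genes between the lines, 3 of the 9 members passed an adjusted p of 0.05. The 2 doses of a line stand in for replicates in this fit, with 1 residual degree of freedom. Its p-values and SE therefore do not cover variation between separate cultures of a line. TP53BP1 was lower in SW1990 by -1.31 ± 0.15 (SE, log2, 4 libraries, Benjamini-Hochberg adjusted p = 0.00392). DCLRE1C was higher by 0.94 ± 0.21 (adjusted p = 0.0239) and XRCC6 by 0.52 ± 0.13 (adjusted p = 0.0312). Over the alternative fits the adjusted p of TP53BP1 lay between 1.22e-10 and 0.00876. That of DCLRE1C lay between 0.0175 and 0.0638, the highest with DESeq2. That of XRCC6 lay between 3.86e-05 and 0.0646, the highest in edgeR's fit on all genes with a count. RIF1 was higher by 0.41 ± 0.13 with an edgeR adjusted p of 0.0665 (0.0164 with DESeq2, 0.0319 with library totals, up to 0.120 over the alternatives). For the other 5 members the adjusted p lay between 0.259 and 0.937.

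By the 1.5-fold limit, DCLRE1C was the 1 member above (29.6% of 16626 genes tested) and TP53BP1 the 1 member below (30.8%) in unirradiated cells. They were also the only members past it in irradiated cells, where 29.4% of 16819 genes lay above and 30.5% below. This holds for TMM-scaled counts. In unirradiated cells XRCC6 and RIF1 were also above the limit with library totals (0.70 and 0.71) and by FPKM (0.69 and 0.92), as was XRCC6 by FPKM in irradiated cells (0.69). For TP53BP1 the log2 difference was -1.19 (-1.26 to -1.11) unirradiated and -1.44 (-1.52 to -1.36) irradiated. For DCLRE1C it was 0.91 (0.69 to 1.13) and 0.97 (0.71 to 1.22). As RIF1 acts through 53BP1, their balance is of interest. The FPKM ratio of TP53BP1 to RIF1 was 0.411 and 0.421 in SW1990 and 1.42 and 1.31 in PANC-1, and the ratio of their counts was 0.300 and 0.265 in SW1990 and 0.960 and 0.895 in PANC-1. TP53BP1 overlaps TUBGCP4 on the other strand, a gene with 2176 and 2037 counts in SW1990 and 1316 and 1337 in PANC-1, a difference in the opposite direction to that of TP53BP1. SUV39H2, which overlaps DCLRE1C on the other strand, had 608 and 556 counts in SW1990 and 354 and 548 in PANC-1. Its log2 difference between the lines was 0.95 (0.76 to 1.14) unirradiated, in the direction of DCLRE1C, and 0.07 (-0.11 to 0.24) irradiated, and its part in the DCLRE1C difference was not tested.

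**Figure D3:**
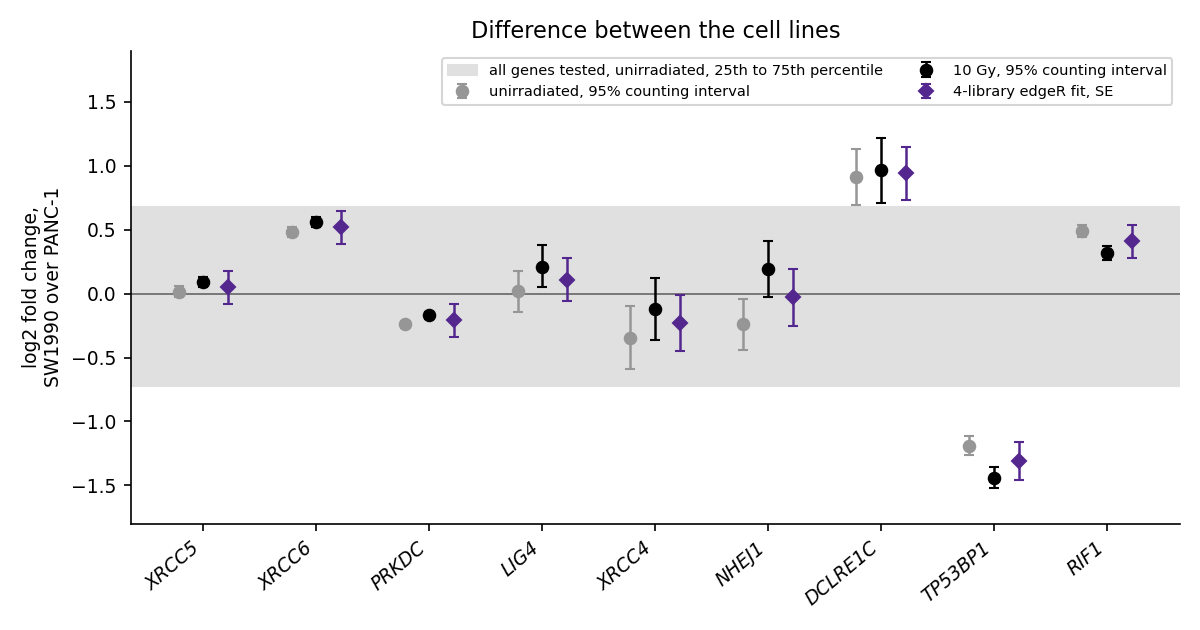
Log2 fold change of SW1990 over PANC-1 for the 9 genes. Circles are single pairs of libraries with 95% counting intervals, and diamonds are edgeR's fit of the 4 libraries with its SE. The grey band runs from the lower to the upper quartile of all genes tested in unirradiated cells (-0.72 to 0.68). TP53BP1 (-1.31) and DCLRE1C (0.94) lie outside it, but within the 5th to 95th percentiles of those genes (-2.63 to 2.71).

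The promoters of the 3 members that passed the test between the lines are shown for their differing make-up. The sequences are from RefSeq on GRCh38.p14 and run from 250 bases before to 50 bases after a transcript start, 5′ to 3′ on the strand of the gene, with 7 of the 9 members matched by symbol. Where RefSeq gives several starts, the one nearest to the start in the deposited table was taken. Capitals mark matches on either strand. The letters searched were CCAAT for the box of that name and GGGCGG for the box that Sp1 binds. For the core that ETS factors bind they were CGGAAG, for the core of the NRF1 motif GCATGCG, and for the TATA box TATAAA.
TP53BP1, chr15:43510591-43510890, minus strand: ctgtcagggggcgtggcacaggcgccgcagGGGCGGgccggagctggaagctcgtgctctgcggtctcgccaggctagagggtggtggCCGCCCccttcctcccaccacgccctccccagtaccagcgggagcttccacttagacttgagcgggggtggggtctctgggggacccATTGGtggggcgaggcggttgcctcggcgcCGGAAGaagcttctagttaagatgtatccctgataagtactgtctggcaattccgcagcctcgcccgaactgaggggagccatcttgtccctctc
DCLRE1C, chr10:14954383-14954682, minus strand: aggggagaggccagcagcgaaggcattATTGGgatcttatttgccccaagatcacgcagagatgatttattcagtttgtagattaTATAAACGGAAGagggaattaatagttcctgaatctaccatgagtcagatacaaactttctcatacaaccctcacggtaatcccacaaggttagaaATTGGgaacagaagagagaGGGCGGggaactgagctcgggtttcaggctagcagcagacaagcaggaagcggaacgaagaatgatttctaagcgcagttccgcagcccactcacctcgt
XRCC6, chr22:41621045-41621344, plus strand: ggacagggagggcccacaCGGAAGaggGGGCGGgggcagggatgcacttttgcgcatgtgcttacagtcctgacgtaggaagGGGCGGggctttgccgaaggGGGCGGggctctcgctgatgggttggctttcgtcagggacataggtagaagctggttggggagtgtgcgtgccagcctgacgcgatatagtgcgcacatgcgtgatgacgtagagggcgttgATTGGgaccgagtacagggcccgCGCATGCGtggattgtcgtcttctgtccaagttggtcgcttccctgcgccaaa
The window of DCLRE1C had a GC content of 47.0% and was the only one of the 7 with TATAAA, found in 11.5% of 35116 RefSeq windows. Those of TP53BP1 and XRCC6 had GC contents of 66.0% and 62.0%, beside a median of 58.7% over all windows. GGGCGG was in 6 of the 7 windows (45.0% of all windows), CCAAT in 5 (34.6%) and CGGAAG in 5 (19.5%), with 3 matches each in LIG4 and XRCC4. GCATGCG was in the windows of XRCC6 and LIG4 (3.91% of all windows). A match describes these letters and is not a site.

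Several members start close to the start of a gene on the other strand. Whether the DNA there serves both genes was not tested. PRKDC and MCM4, a subunit of the replicative helicase, start 2 bases apart on opposite strands. MCM4 had 8829 and 8269 counts in SW1990 and 3458 and 3658 in PANC-1, whereas the count of PRKDC was lower in SW1990 than in PANC-1 (log2 -0.24 unirradiated and -0.17 irradiated, edgeR adjusted p = 0.259). With library totals the unirradiated value was -0.03 and by FPKM -0.04, whereas the irradiated value by FPKM was -0.44. LIG4 starts 11 bases from ABHD13, which had 544 and 709 counts in SW1990 and 301 and 215 in PANC-1. XRCC6 starts 23 bases from DESI1, with 1154 and 1842 counts in SW1990 and 820 and 1001 in PANC-1. The count of DESI1 was higher after radiation in both lines (log2 0.69 and 0.43) and that of XRCC6 lower. TP53BP1 starts 230 bases from MAP1A (154 and 134 counts in SW1990, 220 and 333 in PANC-1). The first bases of XRCC4 overlap those of TMEM167A (1181 and 1117 counts, then 1480 and 1521).

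Of the 10 accessory factors, which process ends or bridge the core complex, 9 were expressed well enough for a fold change. In SW1990, 0 of the 9 were above the 1.5-fold limit (10.9% of all genes tested) and TDP2 was below it (9.62%). TDP2 removes trapped topoisomerase from DNA ends, and had 940 and 450 counts in SW1990, a log2 fold change of -1.05 (-1.21 to -0.88). In PANC-1 it had 923 and 1022 counts (0.29, 0.16 to 0.42), and 0 of the 9 passed the limit there (11.6% of all genes above, 10.1% below). Between the lines 0 of 10 factors passed edgeR's test, beside 43.6% of all genes. IFFO1, the one left out of the fold changes, had 9, 31, 5 and 13 counts.

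Of the 14 genes found that recruit 53BP1 or act with it in shieldin and CST, 2 lay above and 1 below the limit in SW1990 (10.9% and 9.62% of all genes tested), and 0 above and 1 below in PANC-1 (11.6% and 10.1%). STN1, a CST subunit, had 191 and 304 counts in SW1990 (log2 0.69, 0.42 to 0.96) and 460 and 434 in PANC-1 (0.05, -0.14 to 0.25). The shieldin gene SHLD1, listed as C20orf196, had 42 and 15 counts in SW1990 (log2 -1.47, -2.43 to -0.59) and 52 and 48 in PANC-1 (0.02, -0.57 to 0.62). TEN1, another CST subunit, had 43 and 185 counts in SW1990 and 255 and 9 in PANC-1, past the limit in opposite directions. Its read-through partner TEN1-CDK3, on the same strand, ran the other way, with 136 and 16 counts and then 65 and 280. The sum of both was 179 and 201 counts in SW1990 (log2 0.18, -0.11 to 0.48) and 320 and 289 in PANC-1 (-0.01, -0.24 to 0.23), and no change of the locus was detectable. The most abundant of this list was DYNLL1, a light chain that binds 53BP1, with FPKM values between 85.3 and 118. The histone gene H2AFX, whose product marks the chromatin beside a break, followed with FPKM values of up to 99.9.

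The opposing activities, resection and alternative end joining, held 3 more genes past the limit, which 10.9% of all genes tested passed upward and 9.62% downward in SW1990, and 11.6% and 10.1% in PANC-1. RAD50 of the MRE11 complex was the only one of 9 resection genes past it, upward in SW1990 from 1819 to 3557 counts (log2 0.98, 0.90 to 1.07), though not by FPKM (22.1 and 24.3, log2 ratio 0.14). In PANC-1 it had 3200 and 2700 counts (-0.11, -0.18 to -0.03). The unnamed gene AC116366.3, which spans RAD50 on the same strand, had 1448 and 286 counts in SW1990 and 331 and 236 in PANC-1. Their sum was 3267 and 3843 counts in SW1990, a log2 fold change of 0.25 (0.18 to 0.32), which is not past the limit. Of 6 alternative end joining genes, LIG3, the ligase of that route, was lower in SW1990 (2343 and 1500 counts, log2 -0.63, -0.72 to -0.53). By FPKM its log2 ratio there was -0.26, which is not past the limit. LIG3 overlaps RFFL on the other strand over 3754 bases, and RFFL had 1276 and 1215 counts in SW1990 and 1718 and 1414 in PANC-1. The part of RFFL in the LIG3 difference was not tested. FEN1, a flap nuclease, was higher in PANC-1 (1891 and 2678 counts, 0.64, 0.55 to 0.73). By FPKM its log2 ratio there was 0.72. FEN1 overlaps FADS2 on the same strand over 4265 bases, and FADS2 had 2552 and 1565 counts in PANC-1, lower where FEN1 was higher. In SW1990 FADS2 was lower too (173 and 109 counts, log2 -0.65, -1.01 to -0.30). FEN1 was level there (2316 and 2345 counts, 0.03, -0.05 to 0.12). FADS2 reaches far beyond the overlap, so the counts were not summed, and its part in the FEN1 difference was not tested.

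**Figure D4:**
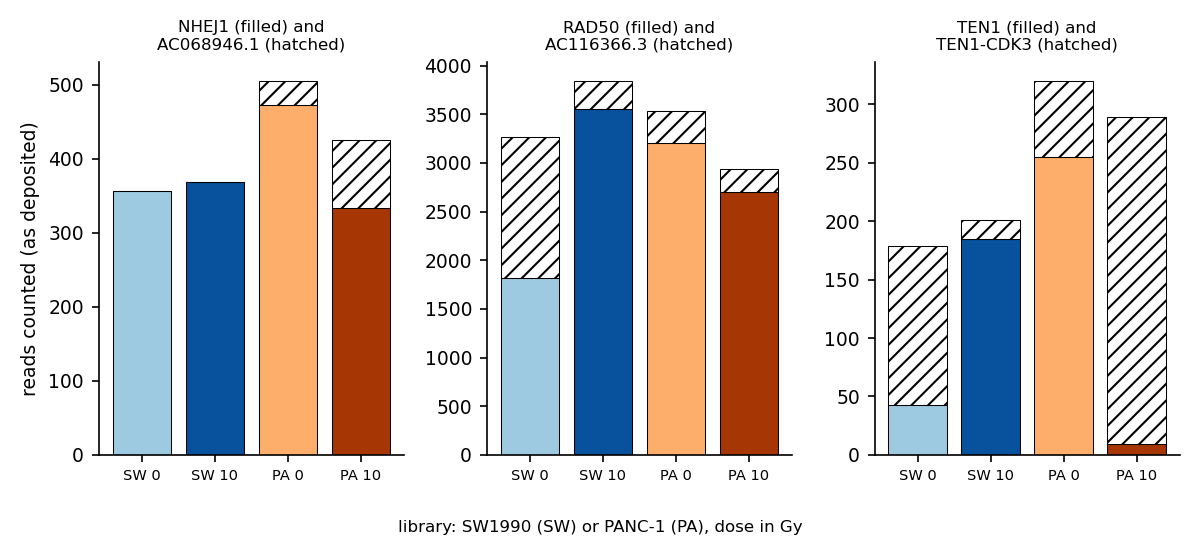
Reads counted for NHEJ1, RAD50 and TEN1 (filled) and for a gene that overlaps each on the same strand (hatched), in the SW1990 and PANC-1 libraries at 0 and 10 Gy, as deposited and with no error bars. The sums of TEN1 and TEN1-CDK3 (179 and 201, then 320 and 289) differ far less with radiation than TEN1 alone (43 and 185, then 255 and 9).

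Between the lines, edgeR's quasi-likelihood test in SW1990 over PANC-1 called 3 of 9 resection genes higher and 1 lower, 3 of 6 alternative end joining genes higher and 0 lower, and 1 of 14 genes of the 53BP1 list higher and 2 lower, beside 43.6% of all genes called in either direction. These genes are named because they were called. RBBP8 (CtIP, which starts resection) was higher in SW1990 by 1.81 (edgeR adjusted p = 0.00204), with BRCA1 (0.65, adjusted p = 0.028) and BARD1 (0.68, adjusted p = 0.0288). MRE11 was lower by -0.67 in counts (edgeR adjusted p = 0.0275), while its FPKM in unirradiated cells was 11.1 in SW1990 and 9.99 in PANC-1, the other direction, and in irradiated cells 8.39 and 11.9, the same direction as the counts. PARP1, the break sensor of alternative end joining, was higher by 0.76 (edgeR adjusted p = 0.011), with its polymerase POLQ (0.63, adjusted p = 0.0289) and LIG1 (0.72, adjusted p = 0.0411). The kinase gene ATM (-0.81, edgeR adjusted p = 0.014) and the CST subunit CTC1 (-0.80, adjusted p = 0.0161) were lower, and H2AFX (0.54, adjusted p = 0.0497) was just past the limit. The lymphoid-specific factors RAG2 and DNTT had 0 counts in each library, which allows up to 0.168 CPM in the shallowest, and RAG1, which cuts antibody and T-cell receptor genes, had between 6 and 18 counts.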

How the data were processed

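RNA of the 4 groups was sequenced with 1 library each. Per the labels and the submitters' processing notes, reads were trimmed with Trimmomatic 0.36, aligned to GRCh38 with HISAT2 2.0 and quantified with StringTie 1.3.3b; the labels describe an mRNA kit and also ribosomal RNA depletion. The authors deposited FPKM values and unnormalized counts, and the tool and strand setting of the counts were not given in the sources used here. Of 59263 rows, 1089 name no gene (0.453% to 0.635% of counts) and were left out. Libraries were scaled by TMM in edgeR 4.0.16. Fold changes of single libraries were limited to genes reaching an FPKM of 1 in a library compared, with exact binomial (Clopper-Pearson) intervals. The fit of 4 libraries (edgeR quasi-likelihood, filterByExpr, Benjamini-Hochberg) was varied with DESeq2 1.42.0 and limma 3.58.1. Its common coefficient of variation was 0.218, and a count of 0 was read as up to 3 counts (0.129 to 0.168 CPM). Lengths were those of GENCODE 29, in which all 9 genes have the table's coordinates. The members and gene lists were chosen with earlier results of these data known. Named were the members, list genes past 1.5-fold with radiation and the 5 most abundant of each list (of which the text gives a part). Also named were genes that start within 1000 bases of a member and list genes called between the lines. Of the genes that overlap a named gene, the text gives a part. SHLD3 was not found by symbol. Sums of overlapping genes were chosen after seeing the data.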

Additional observations from a re-analysis of the deposited data

Results flagged for a closer look

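In 3 companion genes, the counts of SW1990 and PANC-1 cells moved in opposite directions with radiation, with counting intervals that leave out 0 in both lines. The SW1990 response minus the PANC-1 response was -1.33 on the log2 scale for TDP2, 6.81 for TEN1 and 1.09 for RAD50. The difference was not tested, since each line holds 1 library per dose. No other gene of the table overlaps TDP2, whereas the sums of TEN1 with TEN1-CDK3 and of RAD50 with AC116366.3 moved by 0.18 and 0.25 in SW1990 and by -0.01 and -0.13 in PANC-1.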

How the results depend on the processing

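Cell line was a covariate of the 4-library fit, which compares the doses within each line, and no library could be left out because each group holds 1. Past the 1.5-fold limit were 3230 genes in SW1990, which became 10905 with no FPKM minimum, 1050 with an FPKM of at least 5 and 1497 at 2-fold. In PANC-1 the 3285 genes became 11150, 1251 and 1387. Between the unirradiated lines the 10043 genes became 18962 with no FPKM minimum and 6019 with an FPKM of at least 5. With library totals in place of TMM, the median of all genes between the unirradiated lines moved from -0.02 to 0.20, and TP53BP1 then stood at -0.97, XRCC6 at 0.70 and RIF1 at 0.71. Of the genes past the limit, 4922 were higher and 5121 lower in SW1990 with TMM, and 6137 and 4213 with FPKM ratios. For radiation, DESeq2 called 38 genes where edgeR called 0. Among members whose counting interval left out 0, TP53BP1 in PANC-1 turned from -0.07 to 0.01 with library totals, and by FPKM XRCC5 in SW1990 turned from 0.07 to -0.24 and DCLRE1C in PANC-1 from -0.35 to 0.09. The cause was not tested. With at least 500 counts in place of 100, added after seeing the data, 0.820% (SW1990) and 1.02% (PANC-1) of genes had an implied length shorter by over 1.5-fold. Single libraries, and counts under 500 for XRCC4, NHEJ1 and DCLRE1C, limit what small changes can be seen.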
